A study of Mus musculus with 10 samples.

Results

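Prostaglandins and leukotrienes are lipid mediators made from arachidonic acid, and 9 genes of their pathway were followed in mouse liver after activation of the death receptor CD95 (Fas). The 9 genes, of the 38922 genes in the count tables, were chosen by name as genes of this pathway, with earlier results of these data known. They are the phospholipase gene Pla2g4a, the cyclooxygenase genes Ptgs1 and Ptgs2, the prostaglandin E synthase gene Ptges, Hpgd, whose product inactivates prostaglandins, the prostaglandin E2 receptor genes Ptger2 and Ptger4, and Alox5 and Alox5ap of the leukotriene branch. Male wild-type C57BL/6N mice aged 6 weeks were given CD95-Ab, a CD95-activating antibody, at 0.5 µg/g body weight, or an equal volume of saline, by intraperitoneal injection. Each group held 5 mice, and the liver RNA of each mouse was sequenced at 6 h as its own library. The controls received saline and not another antibody, and only 1 dose and 1 time were measured.

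Cytosolic phospholipase A2 frees arachidonic acid from membrane lipids. Cyclooxygenases turn it into prostaglandin H2, from which terminal synthases make prostaglandin E2, prostacyclin, thromboxane and the other prostanoids, which act on G protein-coupled receptors until they are oxidised to inactive forms. In the leukotriene branch, the lipoxygenase encoded by Alox5 works with its membrane partner encoded by Alox5ap, mainly in cells of the myeloid lineage.

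The sequences just upstream of Ptgs1, Ptgs2 and Ptges are shown because both cyclooxygenases make the same product, which Ptges converts to prostaglandin E2, and because the results below turn on them. Each run holds the 250 bases before the RefSeq start site, 5′ to 3′ on the strand of the gene (GRCm38.p6), and capitals mark matches to the motifs searched. The window of Ptgs1 is chr2:36230176-36230425 on the plus strand, that of Ptgs2 is chr1:150099781-150100030 on the plus strand, and that of Ptges is chr2:30903298-30903547 on the minus strand.
Ptgs1: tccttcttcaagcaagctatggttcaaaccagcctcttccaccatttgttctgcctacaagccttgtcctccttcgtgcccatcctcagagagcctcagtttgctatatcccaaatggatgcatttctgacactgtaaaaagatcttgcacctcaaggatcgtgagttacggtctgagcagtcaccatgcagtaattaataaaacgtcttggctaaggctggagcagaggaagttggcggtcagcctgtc
Ptgs2: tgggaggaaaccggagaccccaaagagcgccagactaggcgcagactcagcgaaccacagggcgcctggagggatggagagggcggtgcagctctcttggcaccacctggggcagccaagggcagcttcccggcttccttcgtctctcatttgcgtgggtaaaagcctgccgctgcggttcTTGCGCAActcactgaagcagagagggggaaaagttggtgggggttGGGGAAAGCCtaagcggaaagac
Ptges: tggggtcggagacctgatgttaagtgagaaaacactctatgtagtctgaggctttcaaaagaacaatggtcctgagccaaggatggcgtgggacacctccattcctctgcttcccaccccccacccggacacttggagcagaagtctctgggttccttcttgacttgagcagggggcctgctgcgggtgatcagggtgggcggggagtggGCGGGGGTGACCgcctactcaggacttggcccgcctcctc
The window of Ptgs2 holds TTGCGCAA from -69 to -62, counted from the start site, which matches the C/EBP letters TTGCNNAA. It also holds GGGGAAAGCC from -23 to -14, which matches the NF-kB letters GGGNNNNNCC. The window of Ptges holds GGGGGTGACC from -38 to -29, a match to the same NF-kB letters that overlaps GCGGGGGTG, a match to the EGR letters GCGNGGGNG. In the window of Ptgs1, none of the 7 motifs was found on either strand. The other motifs searched were TGACG for CRE, then TGANTCA for AP-1, then CACGTG for the E-box, and TATAAA for the TATA box. Windows were found for 8 of the 9 genes, and the NF-kB letters occurred in 4 of them, those of Ptgs2, Ptges, Ptger4 and Alox5. Among all 32851 promoter windows of this length, 45.8% hold the NF-kB letters, 9.56% those of C/EBP and 10.5% those of EGR. The shares are 17.8% for CRE, 6.75% for AP-1, 6.02% for the E-box and 12.4% for the TATA box. The matches describe these letters, and binding was not measured. The window of Ptges precedes the RefSeq start site, whereas the longest GENCODE model of this gene begins further upstream.

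The total per mouse lay between 25965699 and 62097636 counts, so that 3 counts correspond to 0.0483 to 0.116 CPM, counts scaled to a total of 1000000. Albumin, the main plasma protein of hepatocytes, took 7.72% to 9.65% of counts in saline-injected mice and 2.88% to 5.44% after CD95-Ab, and the totals were therefore scaled with TMM factors. Of 13719 genes with enough counts to be tested by the quasi-likelihood test of edgeR, 47.3% had an adjusted p (FDR, Benjamini-Hochberg) of 0.05 or less, 25.4% being higher after CD95-Ab and 22.0% lower. The median log2 fold change of all tested genes was 0.01. All markers of hepatocytes were detected in all mice. In whole liver, fewer cells of a type and less RNA per cell cannot be told apart.

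CD95-Ab changed the RNA level of 7 of the 9 genes, all of which had enough counts to be tested. Pla2g4a, Ptgs2, Ptges, Ptger4, Alox5 and Alox5ap rose, Hpgd fell, and Ptgs1 and Ptger2 did not pass the test, so that 6 of 9 were higher and 1 was lower, beside 25.4% and 22.0% of all tested genes. The groups did not overlap for 7 genes, compared with 33.3% of all tested genes. Of these, 6 had all treated mice above all controls (18.6% of tested genes) and 1, Hpgd, had all treated mice below them (14.7%). The median log2 fold change of the 9 genes was 2.51. Because the 9 genes were chosen with earlier results of these data known, these shares cannot tell how unusual the pathway is. Ptgs2, Ptges, Alox5 and Ptger4, with 7, 32, 11 and 73 counts in all in the controls, had enough counts only through the treated mice. The genes that rose included 1 at each synthetic step from membrane lipid to prostaglandin E2, and the gene that fell belongs to its breakdown. Other genes listed under these steps differed. Ptges2 also rose, Ptgs1, Ptges3, Pla2g4b and Pla2g12b did not pass the test, and Pla2g6 and Pla2g12a fell.

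**Figure D1:**
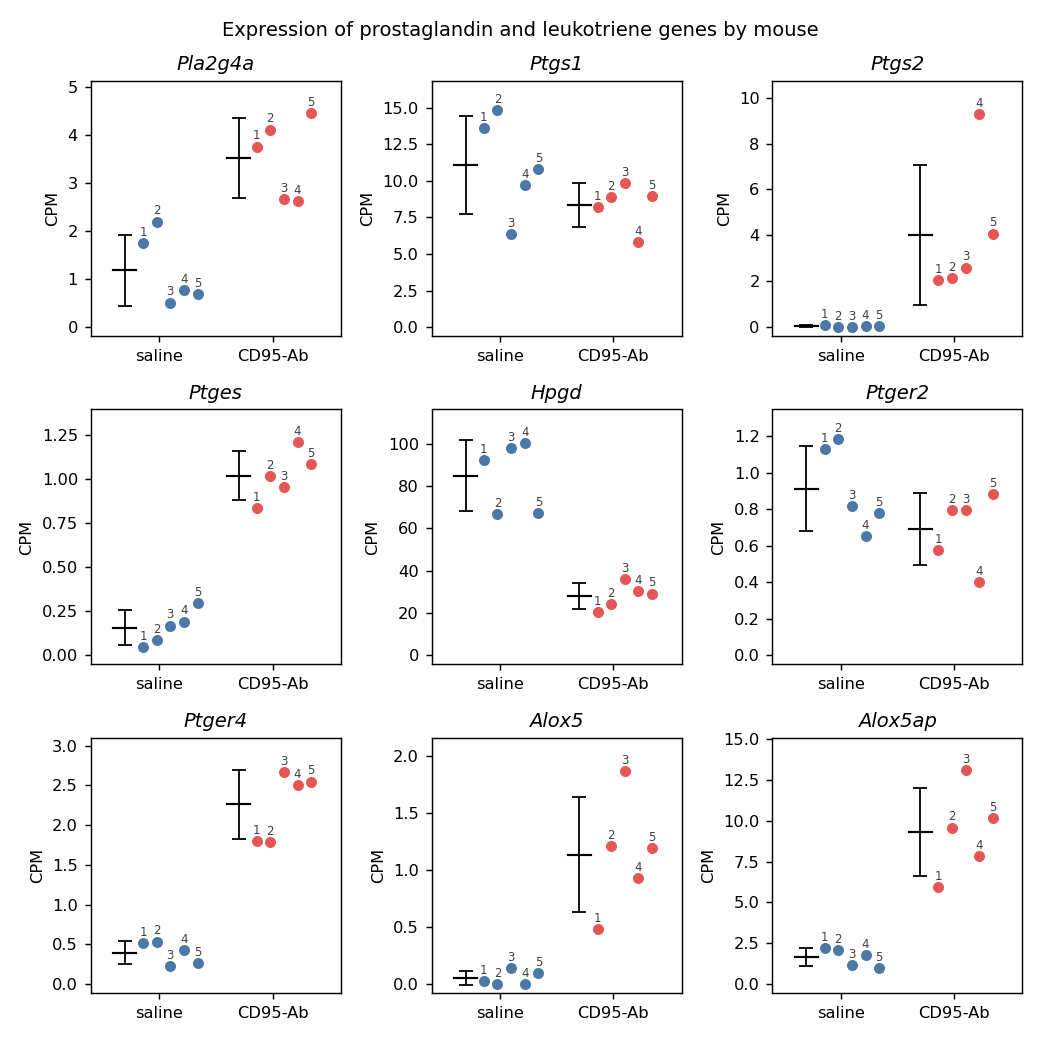
Expression in CPM (vertical axis, linear, starting at or near 0) of the 9 genes in each mouse. Points are mice, numbered by replicate, in saline-injected (blue) and CD95-Ab-injected (red) groups, and bars give the mean and SD of 5 mice. The groups are apart for 7 genes and overlap for Ptgs1 and Ptger2, and for Ptgs2 the saline-injected mice lie at or below 0.0941 CPM.

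Pla2g4a encodes the cytosolic phospholipase A2 that opens the pathway. In saline-injected mice its level was 1.74, 2.19, 0.507, 0.77 and 0.686 CPM in replicates 1 to 5. After CD95-Ab it was 3.75, 4.11, 2.67, 2.62 and 4.45 CPM. The lowest mouse after CD95-Ab, replicate 4, lay above the highest control, replicate 2. The mean rose from 1.18 ± 0.743 to 3.52 ± 0.836 CPM (mean ± SD of 5 mice), with a log2 fold change of 1.58 ± 0.38 (SE; FDR = 0.00497 by edgeR). The controls with the most Pla2g4a, replicates 1 and 2, also had the highest summed levels of 8 Kupffer cell and macrophage markers, 395 and 508 CPM, and the control with the least, replicate 3, had the lowest sum, 150 CPM. The monocyte markers had the same 2 highest controls, 56.8 and 65.5 CPM, and the same lowest one, 21.4 CPM. The T or NK cell markers had the same 2 highest controls in the other order, replicate 1 at 2.89 CPM and replicate 2 at 1.33 CPM. Replicate 5 was close to the latter at 1.32 CPM, and the lowest control was the same. After CD95-Ab, replicate 5 was highest and replicate 4 lowest for both Pla2g4a and the monocyte markers. The macrophage markers were highest in replicate 2 and lowest in replicate 4. The part of any of these cells in the result was not tested.

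Ptgs2, the inducible cyclooxygenase, was almost undetected in saline-injected mice. The controls gave 4, 0, 0, 1 and 2 counts, or 0.0941, 0, 0, 0.0385 and 0.0371 CPM, and thus lay near or below the 3 counts that limit detection in a library. After CD95-Ab the 5 mice gave 64, 67, 65, 230 and 184 counts, or 2.05, 2.13, 2.59, 9.28 and 4.07 CPM. No mouse of the controls came near the lowest mouse injected with CD95-Ab, and replicate 4 stood above the others of its group. The mean rose from 0.0339 ± 0.0386 to 4.03 ± 3.05 CPM (mean ± SD of 5 mice), with a log2 fold change of 6.66 ± 0.70 (SE; FDR = 1.63e-05 by edgeR). This was the largest change among the 9 genes. It was 7.41 without saline replicate 1, which held 4 of the 7 counts of the controls, and 5.46 with a prior count of 2 in place of the default of edgeR. Without CD95-Ab replicate 4, the highest of its group, it was 6.08.

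Ptgs1, the constitutive cyclooxygenase, did not follow Ptgs2. The controls had 13.6, 14.9, 6.37, 9.74 and 10.8 CPM, and the mice injected with CD95-Ab had 8.22, 8.92, 9.83, 5.81 and 8.97 CPM. The groups overlapped, and the lowest control, replicate 3, was below 4 of the 5 mice injected with CD95-Ab. The log2 fold change was -0.41 ± 0.22 (SE; FDR = 0.146 by edgeR), with a 95% interval from -0.89 to 0.07. Without saline replicate 3 it was -0.56 with an FDR of 0.0281 by edgeR, so this control decided whether the lower level passed the threshold. The same control had the lowest macrophage, monocyte, platelet and T or NK cell marker sums.

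The balance of the pair was therefore compared within each liver, as log2 of the ratio of FPKM (with 0.01 FPKM added), which takes account of transcript length. Ptgs2 made up 0% to 0.518% of the summed FPKM of both cyclooxygenases in the controls. After CD95-Ab its share was 13.2%, 12.1%, 13.97%, 49.5% and 21.5% in replicates 1 to 5. Replicate 4 thus held nearly as much Ptgs2 as Ptgs1, and it had both the highest Ptgs2 and the lowest Ptgs1. The mean log2 ratio of Ptgs2 to Ptgs1 was -7.97 ± 0.83 in the controls and -2.005 ± 1.17 after CD95-Ab (SD, n = 5; difference 5.97; exact two-sided permutation test, p = 0.00794, adjusted over 4 ratios 0.0106). This p is the smallest that 5 mice against 5 allow, and it adds little, since the groups were already far apart for Ptgs2 alone. The size of the difference depends on the value added, since 2 controls had no Ptgs2, and it was 3.47 with 0.1 FPKM added and 6.93 from counts with 0.5 added.

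Pla2g4a and Ptgs2 are neighbours on mouse chromosome 1. In GENCODE M21 (GRCm38), Pla2g4a lies at chr1:149829618-149961290 on the minus strand and Ptgs2 at chr1:150100031-150108227 on the plus strand, with 138740 bases between them. Both rose, and CD95-Ab replicate 4, which was highest for Ptgs2, was lowest for Pla2g4a.

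Ptges encodes the inducible membrane-bound prostaglandin E synthase. The controls had 0.047, 0.0889, 0.169, 0.192 and 0.297 CPM, and the mice injected with CD95-Ab had 0.834, 1.02, 0.955, 1.21 and 1.08 CPM. The groups were well apart, and the spread after CD95-Ab was small. The mean rose from 0.159 ± 0.097 to 1.02 ± 0.141 CPM (mean ± SD of 5 mice), with a log2 fold change of 2.63 ± 0.38 (SE; FDR = 0.000175 by edgeR). The other enzymes known to make prostaglandin E2 behaved differently. Ptges3, the cytosolic form that is also a co-chaperone, had 83.8 ± 6.74 CPM in the controls and 83.9 ± 7.57 CPM after CD95-Ab, a log2 fold change of 0.00 with a 95% interval from -0.24 to 0.24. Ptges2, a second membrane-associated form, went from 10.8 ± 1.64 to 16.9 ± 5.70 CPM (log2 fold change 0.65, FDR = 0.0298 by edgeR). This call was not firm, since the FDR was 0.0533 to 0.0833 when saline replicate 1, 2 or 5 or CD95-Ab replicate 1, 2 or 3 was left out.

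Hpgd encodes the dehydrogenase that begins the breakdown of prostaglandins. The controls had 92.1, 66.8, 98.1, 100.4 and 67.1 CPM. After CD95-Ab the level was 20.6, 24.2, 36.1, 30.5 and 29.3 CPM, so that no mouse of this group came near the lowest control. The mean fell from 84.9 ± 16.7 to 28.1 ± 5.96 CPM (SD, n = 5), 3.02-fold lower, with a log2 fold change of -1.59 ± 0.18 (SE; FDR = 3.12e-05 by edgeR). Among the 6 hepatocyte markers the median was -0.75 on the same log2 scale. Alb, Ttr and Cyp2e1 fell, beside 22.0% of all tested genes, and Apoa1, Serpina1c and Cps1 did not pass the test. Within each liver, the log2 ratio of Ptges to Hpgd was -9.72 ± 1.505 in the controls and -5.44 ± 0.68 after CD95-Ab (SD, n = 5; difference 4.28; exact permutation test, p = 0.00794, adjusted 0.0106). Ptges was higher and Hpgd lower in every mouse injected with CD95-Ab than in every control. The ratio therefore had to separate the groups, and its p adds nothing to the results of the 2 genes. With 0.1 FPKM added, which is near the level of Ptges in the controls, the difference was 3.20.

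**Figure D2:**
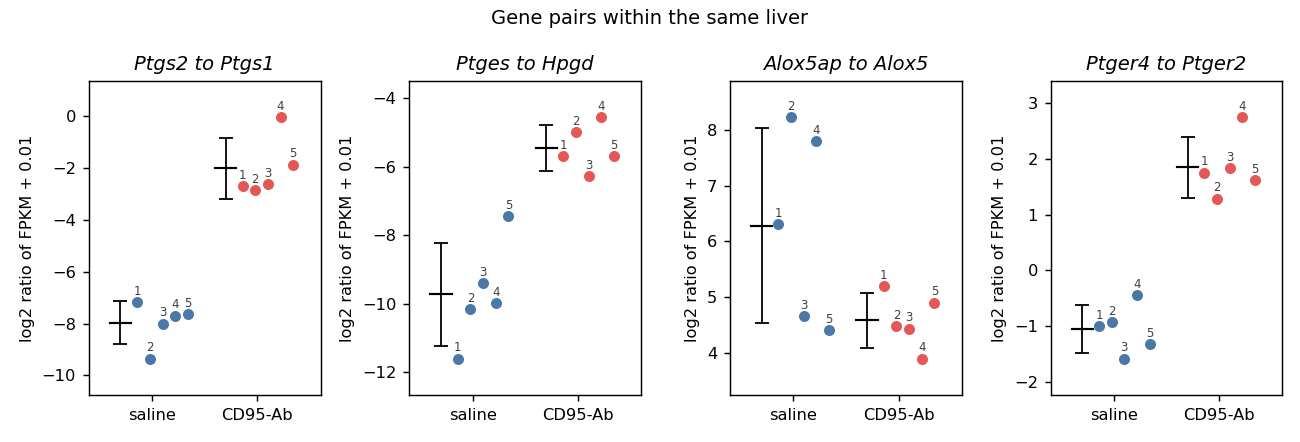
Log2 ratio of FPKM (vertical axis, 0.01 FPKM added to each gene) of 4 gene pairs in each liver, with mice as numbered points and the mean and SD of 5 mice as bars. The ratios of Ptgs2 to Ptgs1, Ptges to Hpgd and Ptger4 to Ptger2 are higher in all CD95-Ab-injected mice than in all controls, and the ratio of Alox5ap to Alox5 overlaps between groups.

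Of 4 other genes of prostaglandin breakdown, taken from a list of 57 further genes of the pathway, 3 fell, beside 22.0% of all tested genes. Cbr1, a carbonyl reductase, went from 68.2 ± 19.6 to 37.3 ± 5.68 CPM (log2 fold change -0.87, FDR = 0.0022). Ptgr2, a prostaglandin reductase, went from 49.3 ± 7.88 to 31.2 ± 4.57 CPM (-0.66, FDR = 0.0028). Ptgr3, a related reductase, went from 61.2 ± 10.6 to 33.9 ± 5.68 CPM (-0.85, FDR = 0.000883, all by edgeR). Ptgr1 had a log2 fold change of -0.69 and an FDR of 0.0657, which was 0.0353 without saline replicate 3. For Ptgr3 and Cbr1 every mouse injected with CD95-Ab was below every control, beside 14.7% of all tested genes, and for Ptgr2 the groups overlapped in 1 control, replicate 5. Hepatocyte marker sums moved the same way, from a range of 103433 to 128849 CPM to a range of 47830 to 84518 CPM, and 3 of 6 hepatocyte markers fell. Albumin weighs heavily in these sums, since it took 7.72% to 9.65% of counts in the controls. The part of hepatocytes in these results was not tested.

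Ptger2 and Ptger4 encode receptors for prostaglandin E2 that both raise cyclic AMP. For Ptger4 the controls had 0.518, 0.534, 0.225, 0.423 and 0.26 CPM, and the mice injected with CD95-Ab had 1.8, 1.78, 2.67, 2.5 and 2.55 CPM. The lowest mouse after CD95-Ab was above every control. The mean rose from 0.392 ± 0.143 to 2.26 ± 0.432 CPM (mean ± SD of 5 mice), with a log2 fold change of 2.53 ± 0.29 (SE; FDR = 2.92e-05 by edgeR). Ptger4 overlaps Ttc33 on the opposite strand, and use of strand in the counting is not given in the sources used here. Reads of both genes can then not be told apart where they overlap, and Ttc33 had a mean of 12.0 CPM in the controls and 8.14 CPM after CD95-Ab.

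Ptger2 did not rise with Ptger4. The controls had 1.13, 1.19, 0.817, 0.654 and 0.779 CPM, and the mice injected with CD95-Ab had 0.578, 0.796, 0.796, 0.404 and 0.886 CPM. The groups overlapped. The log2 fold change was -0.39 ± 0.27 (SE; FDR = 0.263 by edgeR), with a 95% interval from -0.99 to 0.21. Of the summed FPKM of the pair, Ptger4 made up 32.7%, 33.9%, 23.3%, 41.9% and 26.9% in the controls and 77.8%, 71.4%, 78.7%, 88.0% and 76.0% after CD95-Ab. Ptger2 was thus the more expressed receptor of the pair in every control, and Ptger4 in every mouse injected with CD95-Ab. The log2 ratio of Ptger4 to Ptger2 differed by 2.90 between the groups (-1.05 ± 0.43 and 1.85 ± 0.54, SD, n = 5; exact permutation test, p = 0.00794, adjusted 0.0106), or by 2.14 with 0.1 FPKM added. The groups were already apart for Ptger4 alone, so this p adds little.

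Among 7 other prostanoid receptor genes, 2 had enough counts to be tested and both rose, beside 25.4% of all tested genes. The gene for the prostacyclin receptor, Ptgir, had 0.165, 0.148, 0.0282, 0 and 0.111 CPM in the controls and 1.54, 1.56, 1.39, 1.41 and 1.75 CPM after CD95-Ab. The groups were far apart and the values after CD95-Ab were close together, and the log2 fold change was 3.94 ± 0.43 (SE; FDR = 2.39e-05 by edgeR). With 19 counts in all in the controls, Ptgir could be tested only through the mice injected with CD95-Ab. A gene as low in the controls that did not rise would not be tested, so the 25.4% is no fair measure here. Ptger1, another receptor for prostaglandin E2, went from 3.49 ± 0.566 to 4.93 ± 0.263 CPM (log2 fold change 0.49, FDR = 0.0147). The thromboxane receptor gene Tbxa2r, with a mean of 0.329 CPM in the controls and 0.149 CPM after CD95-Ab, was too low to be tested. Ptger3, Ptgfr and Ptgdr2 were not tested either, and Ptgdr was at 0 in all mice.

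Alox5 encodes the lipoxygenase that makes leukotriene A4. The controls had 0.0235, 0, 0.141, 0 and 0.0927 CPM, 11 counts in all, and the mice injected with CD95-Ab had 0.481, 1.21, 1.87, 0.928 and 1.2 CPM. The groups were apart, and in the controls the gene was at the limit of detection. The mean rose from 0.0514 ± 0.0628 to 1.14 ± 0.505 CPM (mean ± SD of 5 mice), with a log2 fold change of 4.26 ± 0.62 (SE; FDR = 0.000173 by edgeR), or 3.41 with a prior count of 2.

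Alox5ap, the membrane partner of this lipoxygenase, was present before injury. It had 2.21, 2.08, 1.16, 1.77 and 0.964 CPM in the controls and 5.94, 9.59, 13.1, 7.83 and 10.1 CPM after CD95-Ab. The groups did not overlap, and in both groups the gene was detected in every mouse. The mean rose from 1.64 ± 0.553 to 9.32 ± 2.68 CPM (mean ± SD of 5 mice), with a log2 fold change of 2.51 ± 0.28 (SE; FDR = 2.55e-05 by edgeR). CD95-Ab replicate 3 was highest and replicate 1 lowest for both Alox5 and Alox5ap. The same 2 mice had the highest and the lowest summed level of 10 neutrophil markers in their group, 474 and 114 CPM. They were also the highest and the lowest for platelet markers, 31.5 and 10.01 CPM. The same held for sinusoidal endothelium, 290 and 157 CPM, and for cholangiocytes, 101 and 27.8 CPM. The part of any of these cells in these results was not tested.

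The difference in the ratio of Alox5ap to Alox5 did not pass the test. Its log2 mean was 6.28 ± 1.75 in the controls and 4.58 ± 0.50 after CD95-Ab (SD, n = 5; difference -1.70; exact permutation test, p = 0.103, adjusted 0.103). The ranges overlapped, and 2 controls had no Alox5 counts, so their ratios rest on the 0.01 FPKM added. With 0.1 FPKM added the difference was 0.20, and its direction is therefore not set by these data.

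The order of the 9 genes by FPKM changed with CD95-Ab. In the controls the median was highest for Hpgd at 60.33 FPKM, followed by Ptgs1 at 4.14, Alox5ap at 2.22, Pla2g4a at 0.27, Ptger2 at 0.23, Ptger4 at 0.13, Ptges at 0.05, Alox5 at 0.03 and Ptgs2 at 0.01 FPKM. Between neighbours in this order, the ranges over mice were apart only between Hpgd and Ptgs1 and between Alox5ap and Pla2g4a. After CD95-Ab the order of medians was Hpgd at 15.53, Alox5ap at 12.04, Ptgs1 at 3.66, Pla2g4a at 1.47, Ptger4 at 0.66, Ptgs2 at 0.57, Alox5 at 0.53, Ptges at 0.33 and Ptger2 at 0.2 FPKM. The ranges of Hpgd and Alox5ap now overlapped, those of Alox5ap and Ptgs1 and of Ptgs1 and Pla2g4a were apart, and all further neighbours overlapped. Ptger2 had moved from the fifth place to the last.

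Of the 57 other genes of the pathway, 32 had enough counts to be tested. Of these, 11 rose, 8 fell and 13 did not pass the test, beside 25.4% higher and 22.0% lower among all tested genes, and their median log2 fold change was 0.23. The groups did not overlap for 12 of them, 6 in each direction, beside 33.3% of all tested genes (18.6% above and 14.7% below the controls), so the list as a whole lay near the background.

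**Figure D3:**
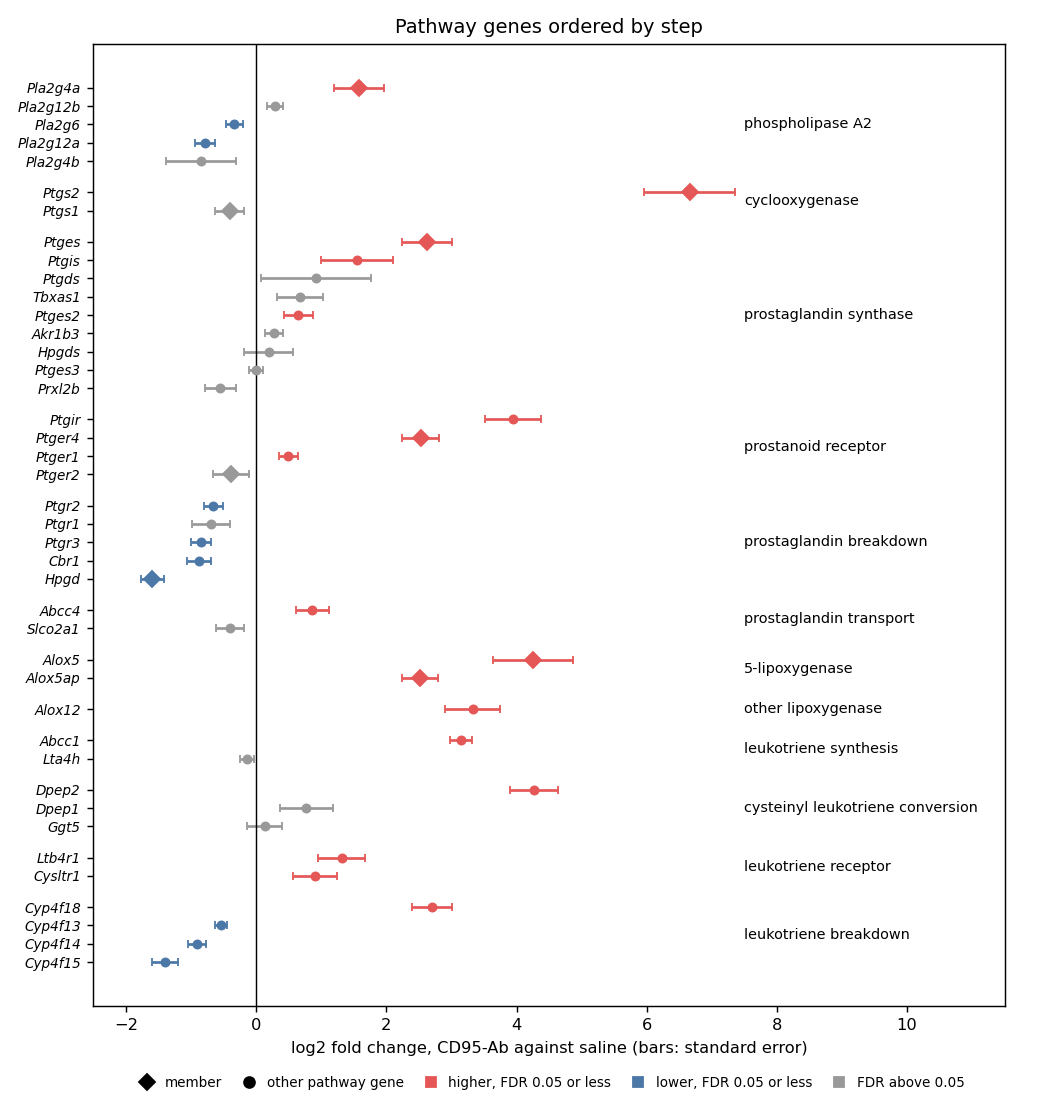
Log2 fold change of CD95-Ab against saline (horizontal axis, bars are the standard error) of the 9 genes (diamonds) and the 32 tested genes of the pathway list (circles), ordered by step. Red and blue mark genes higher or lower at an FDR of 0.05 or less and grey all others, with Ptgs2 farthest to the right at 6.66 and Hpgd farthest to the left at -1.59.

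In the leukotriene branch, Abcc1 encodes a transporter that exports leukotriene C4. It had 1.74, 1.72, 1.3, 1.27 and 1.91 CPM in the controls and 12.5, 11.2, 15.2, 16.2 and 15.7 CPM after CD95-Ab, with no overlap (log2 fold change 3.14 ± 0.17, SE; FDR = 3.24e-07 by edgeR). Dpep2, a dipeptidase that converts leukotriene D4 to leukotriene E4, went from 0.0758 ± 0.0448 to 1.62 ± 0.422 CPM (4.27, FDR = 4.42e-06), also with no overlap. Lta4h, the hydrolase that makes leukotriene B4, did not pass the test. It had 22.4 ± 2.08 CPM in the controls and 20.3 ± 2.17 CPM after CD95-Ab, a log2 fold change of -0.14 with a 95% interval from -0.38 to 0.10. The gene of leukotriene C4 synthase, Ltc4s, reached at most 0.241 CPM and was not tested. Dpep1 and Ggt5, which act on cysteinyl leukotrienes or glutathione conjugates, had log2 fold changes of 0.77 and 0.13 with FDRs of 0.136 and 0.707.

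Both tested leukotriene receptor genes rose, beside 25.4% of all tested genes. Ltb4r1, the high-affinity receptor for leukotriene B4, went from 0.300 ± 0.118 to 0.765 ± 0.255 CPM (log2 fold change 1.31, FDR = 0.0104 by edgeR). With 61 counts in all in the controls, Ltb4r1 could be tested only through the mice injected with CD95-Ab, so the 25.4% is no fair measure for it. Its groups overlapped because of CD95-Ab replicate 1, at 0.321 CPM, the mouse with the lowest neutrophil marker sum of its group. That mouse also had the lowest platelet, sinusoidal endothelium, cholangiocyte and B cell marker sums of the group. Cysltr1, a receptor for cysteinyl leukotrienes, went from 0.548 ± 0.199 to 1.02 ± 0.429 CPM (0.90, FDR = 0.0434). This call was lost, with an FDR of 0.0624 to 0.133, when saline replicate 3, 4 or 5 or CD95-Ab replicate 1, 2 or 5 was left out.

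Of 4 Cyp4f genes, whose products include enzymes that hydroxylate leukotriene B4, 1 rose and 3 fell. Among all tested genes, 25.4% were higher and 22.0% lower. Cyp4f18, known from myeloid cells, went from 0.335 ± 0.149 to 2.20 ± 0.449 CPM (log2 fold change 2.70, FDR = 2.92e-05 by edgeR). Cyp4f13 had a log2 fold change of -0.54 (FDR = 0.000534). Cyp4f14 went from 241 to 129 CPM (-0.91, FDR = 0.000281) and Cyp4f15 from 107 to 40.6 CPM (-1.40, FDR = 0.000151). In all 4 the groups did not overlap, beside 33.3% of all tested genes. The 4 genes are close paralogs, so the share of reads given to each depends on the assignment by RSEM. Alox12, the platelet-type lipoxygenase, was the only other lipoxygenase gene with enough counts, and rose from 0.305 ± 0.160 to 3.16 ± 1.43 CPM (3.32, FDR = 7.26e-05). Its highest mouse after CD95-Ab was replicate 3 at 5.29 CPM, the mouse with the highest summed level of 6 platelet markers, 31.5 CPM. The same mouse was highest of its group for neutrophil, sinusoidal endothelium, stellate cell or fibroblast, cholangiocyte, mesothelium and hepatocyte markers. The part of any of these cells in the result was not tested.

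Of 13 other phospholipase A2 genes, 4 were tested, of which 2 fell and none passed the test as higher. Among all tested genes, 22.0% were lower and 25.4% higher. Pla2g12a, a secreted form, went from 19.98 ± 3.76 to 11.6 ± 1.69 CPM (log2 fold change -0.78, FDR = 0.00144 by edgeR). Pla2g6, a calcium-independent form, went from 24.6 ± 2.97 to 19.5 ± 2.79 CPM (-0.33, FDR = 0.0468), and this call was lost, with an FDR of 0.0585 to 0.121, on leaving out any mouse other than saline replicate 3 or CD95-Ab replicate 1 or 4. Pla2g12b had a log2 fold change of 0.28 (FDR = 0.0777, or 0.0428 without CD95-Ab replicate 1) and Pla2g4b one of -0.85 (FDR = 0.214). Pla2g2a, annotated as a polymorphic pseudogene, and Pla2g2e, Pla2g4d and Pla2g4e were at 0 in all mice. Pla2g2d, Pla2g4c, Pla2g4f, Pla2g5 and Pla2g10 were too low to be tested.

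Of the 8 other terminal synthase genes, all tested, Ptges2 and Ptgis passed the test, both as higher, beside 25.4% of all tested genes. Ptgis, the prostacyclin synthase, had 1.36, 0.563, 1.61, 1.58 and 1.41 CPM in the controls and 2.73, 3.38, 9.95, 0.686 and 2.5 CPM after CD95-Ab. The groups overlapped because of CD95-Ab replicate 4, and replicate 3 stood far above the rest. The log2 fold change was 1.55 ± 0.55 (SE; FDR = 0.035 by edgeR). It was 0.84 with an FDR of 0.126 without CD95-Ab replicate 3, and the FDR was 0.0503 to 0.0723 without any saline replicate or CD95-Ab replicate 2. Ptgds, a prostaglandin D synthase, had 0.16, 0.669, 9.67, 0.888 and 0.642 CPM after CD95-Ab, and its log2 fold change of 0.92 did not pass the test (FDR = 0.398). CD95-Ab replicate 3 also had the highest summed level of 3 mesothelium markers, 21.7 CPM compared with 1.45 to 7.80 CPM in all other mice. This mouse was the highest of its group for several other marker lists as well, among them stellate cells or fibroblasts. Tbxas1, the thromboxane synthase, had a log2 fold change of 0.68 (FDR = 0.131) and Hpgds, the hematopoietic prostaglandin D synthase, one of 0.19 (FDR = 0.698). Akr1b3 and Prxl2b, reductases able to make prostaglandin F, had 0.28 (FDR = 0.129) and -0.55 (FDR = 0.075, or 0.00298 without CD95-Ab replicate 4).

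Of both transporter genes of the list, Abcc4, which exports prostaglandins, went from 1.42 ± 0.422 to 2.59 ± 0.648 CPM (log2 fold change 0.86, FDR = 0.0132 by edgeR). Slco2a1, which takes prostaglandins up for breakdown, had 68.7 ± 18.4 and 51.9 ± 10.9 CPM (-0.40, FDR = 0.143). Without saline replicate 5, whose 37.3 CPM was the lowest of all mice, the FDR of Slco2a1 was 0.0089 with a log2 fold change of -0.57.

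Markers of several cell types of the liver were also measured in the same libraries. The counts of markers that rose stand beside 25.4% of all tested genes. The summed level of the 10 neutrophil markers was 4.43 to 11.2 CPM in the controls and 114 to 474 CPM after CD95-Ab, and 8 of the 8 tested rose. Ly6g and Ltf were too low to be tested. Some of the 8, such as Mmp8 and Ngp with 31 and 22 counts in all in the controls, could be tested only through the mice injected with CD95-Ab. Counts of low markers that rose are thus partly set by the filter and cannot be weighed against the 25.4%. Monocyte markers went from a range of 21.4 to 65.5 CPM to a range of 71.7 to 149 CPM (4 of 5 rose), and platelet markers from 2.20 to 8.49 CPM to 10.01 to 31.5 CPM (4 of 4 tested). Kupffer cell and macrophage markers had ranges of 150 to 508 CPM and 283 to 667 CPM, and 2 of 8 rose (Cd5l and Marco). Mast cell markers were at or near 0, with at most 0.0941 CPM in the controls and 0.193 CPM after CD95-Ab for the sum of 4 genes, and Tpsb2 was at 0 in all mice.

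Ranges for sinusoidal endothelium were 49.3 to 113 CPM and 157 to 290 CPM (4 of 5 rose), and those for stellate cells or fibroblasts 112 to 156 CPM and 277 to 443 CPM (3 of 5). Cholangiocyte markers had 15.1 to 31.6 CPM and 27.8 to 101 CPM (3 of 4 rose). For B cells the ranges were 0.385 to 2.25 CPM and 1.80 to 10.8 CPM (3 of 3), for T or NK cells 0.761 to 2.89 CPM and 3.15 to 5.20 CPM (3 of 4), and for mesothelium 1.45 to 5.23 CPM and 1.90 to 21.7 CPM (0 of 2 tested). The part of any of these cells in the results for the 9 genes was not tested.

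**Figure D4:**
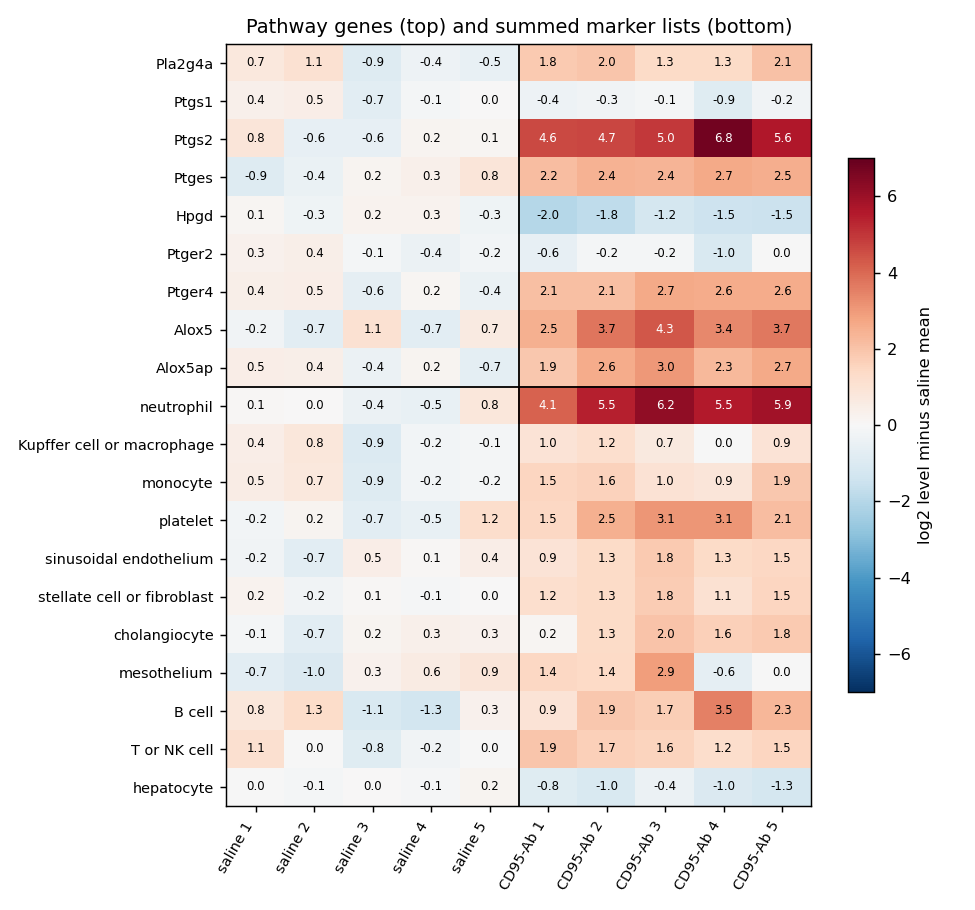
Level of the 9 genes (upper block) and summed level of 11 marker lists (lower block) in each mouse, as the log2 difference from the mean of the saline-injected mice, with a prior count of 2 for the genes. Colour and the printed value give the same difference, and the 5 columns on the right are the mice injected with CD95-Ab. Ptgs2 and the neutrophil list are the darkest. Hpgd, Ptgs1, Ptger2 and the hepatocyte list are below 0 in all mice injected with CD95-Ab, Ptger2 only just in replicate 5 (-0.008). Ptgs1 stays within 1 unit of its saline mean in all mice.

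Genes that followed the 9 most closely over all 10 mice were found among 13142 genes by the root mean square of the log2 difference, after each gene was set to its own saline mean. For Ptgs2 the nearest was Ccl3, a chemokine gene, at 0.443, then Hist1h4n at 0.598, a histone gene with near-identical copies whose reads are uncertain, and Gm10719 at 0.644. Ptges was nearest to Cnn2 at 0.333, Tnfrsf10b at 0.342 and Il1r1 at 0.346. Pla2g4a had the closest neighbours of all 9 genes, with Fam111a at 0.0645, Sash3 at 0.150 and Lair1 at 0.187, of which Sash3 encodes a lymphocyte adaptor and Lair1 an inhibitory receptor of leukocytes. Alox5 was nearest to Lyve1 at 0.338, a marker of sinusoidal endothelium in the list above, then Schip1 at 0.367 and Fam78b at 0.369.

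Alox5ap and Ptger4 were among the genes nearest to each other, at 0.242. The other genes nearest to Alox5ap were Rab8b at 0.246 and Tgfb1 at 0.282, and those nearest to Ptger4 were Il33 at 0.236 and Cotl1 at 0.252. Hpgd was nearest to Zkscan14 at 0.205, to Cebpa at 0.220, which encodes a hepatocyte transcription factor, and to Slc10a1 at 0.224, the hepatocyte bile acid importer. Ptgs1 was nearest to Galns at 0.234, Pglyrp2 at 0.235 and Cdk5rap2 at 0.236, and Ptger2 to Nrm at 0.136, Rbfox2 at 0.187 and Pou2f1 at 0.192. The difference between the groups makes up much of each distance, so likeness within a group is not shown by it.

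The other 7 genes are not neighbours of each other in GENCODE M21 (GRCm38). Ptgs1 (ENSMUSG00000047250) is at chr2:36230426-36252272 on the plus strand and Ptges (ENSMUSG00000050737) at chr2:30889471-30929863 on the minus strand. Alox5ap (ENSMUSG00000060063) is at chr5:149264767-149288153 and Hpgd (ENSMUSG00000031613) at chr8:56294585-56321043, both on the plus strand. Alox5 (ENSMUSG00000025701) is at chr6:116410077-116461178 and Ptger4 (ENSMUSG00000039942) at chr15:5206661-5244187, both on the minus strand. Ptger2 (ENSMUSG00000037759) is at chr14:44988195-45003820 on the plus strand, where an antisense gene, Gm17173, gave 13 counts over all mice. The identifiers of Pla2g4a and Ptgs2 are ENSMUSG00000056220 and ENSMUSG00000032487.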

How the data were processed

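Liver RNA of 10 mice was analysed, 5 per group, with groups and replicate numbers taken from the sample titles. Libraries were made from 500 ng of total RNA with TruSeq reagents and read in pairs. Reads were assigned to genes with RSEM (version 1.2.19) according to the submitters' processing notes. The expected counts deposited by the authors are not normalized and were whole numbers. The FPKM values deposited by the authors are scaled for transcript length and library total, and were used for levels and ratios between genes. A human Gencode release is named in the methods, whereas the tables hold mouse Ensembl identifiers, and the mouse release and build are not given in the sources used here. Of 38922 identifiers, 37606 matched GENCODE M21 (GRCm38), from which symbols and positions were taken.

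Genes were kept by filterByExpr with a minimum count of 10, scaled with TMM factors and tested in edgeR (4.0.16, R 4.3.3) by its quasi-likelihood method with a term for group alone. Benjamini-Hochberg adjustment was made over all 13719 tested genes. Standard errors and 95% intervals were derived from the test statistic. The code was tested on simulated data. Ratios were compared with exact permutation tests (scipy 1.17.1). All 9 genes were kept by the filter, so the exact test planned for genes with too few counts was not needed. No 2 libraries agreed within sampling noise, and no batch is given in the labels, so within-batch values could not be computed. Promoters are from RefSeq (GRCm38.p6). The 50 bases after each start site were not used.

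The members and gene lists were chosen with earlier results of these data known. Genes named are the 9 members, genes of the pathway list at an FDR of 0.05 or less or at the step of a member, and the 3 genes nearest to each member. Genes of the lists named for other reasons were chosen after their values were seen. Alternatives were DESeq2 (1.42.0), other scalings, filters, prior counts and pseudocounts, a replicate block, and fits that each left out 1 mouse. Leaving out both extremes of the second principal component together was added after seeing the data.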

Additional observations from a re-analysis of the deposited data

Results flagged for a closer look

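In 7 of 90 groups of 5 mice, taken over the 9 genes, the 32 tested genes of the pathway list and the 4 ratios, the highest or lowest mouse stood apart from the others by Dixon's test at 95%, where chance gives about 1 in 20 groups. Ptgs2 was 9.28 CPM in CD95-Ab replicate 4 and 2.05 to 4.07 CPM in the other mice of the group. Ptgds was 9.67 CPM in CD95-Ab replicate 3 and 0.160 to 0.888 CPM in the others. The mesothelium marker sum, like those of several other lists, was highest in the same mouse. Ptgis was 0.563 CPM in saline replicate 2, below 1.36 to 1.61 CPM in the other controls. Ltb4r1 was 0.321 CPM in CD95-Ab replicate 1, below 0.807 to 0.952 CPM in the others. Saline replicate 5 stood apart for 3 genes of the list, with Ptger1 at 4.47 CPM (others 3.10 to 3.46), Cbr1 at 102 CPM (others 55.4 to 67.5) and Slco2a1 at 37.3 CPM (others 71.9 to 85.9). What sets these mice apart was not tested.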

How the results depend on the processing

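Of the values recomputed under the alternatives, 307 counted as unchanged. For fold changes and ratios this meant the same direction and the same side of the threshold. For counts of genes it meant a change of at most 1.5-fold. Of the rest, 3 counts of genes moved further, 1 value reversed direction, 2 passed the threshold only in the alternative and 3 no longer passed it. With a prior count of 2 only the fold changes were recomputed, so their side of the threshold could not change. The number of the 9 genes that were higher was 2 instead of 6, and that of pathway list genes 5 instead of 11, when at least 10 counts were required in every mouse, a filter that leaves out Ptgs2, Ptges, Alox5 and Ptger4. Leaving out each mouse in turn gave 6 higher and 1 to 2 lower of the 9 genes, the second being Ptgs1, whose log2 fold change ranged from -0.56 to -0.29. It gave 8 to 11 higher and 7 to 9 lower genes of the pathway list. The log2 ratio of Alox5ap to Alox5 differed by 0.20 with 0.1 FPKM added, the opposite direction (exact permutation test, p = 0.659), and by -2.17 to -1.21 when each mouse was left out, passing the threshold only without saline replicate 5 (adjusted p = 0.0476, exact permutation test).

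The replicate numbers in the titles did not pair the mice, with correlations of deviations from the group mean of 0.26, 0.087, 0.13, -0.017 and -0.27 for numbers 1 to 5. With the replicate block, 6 of the 9 genes were higher and 1 lower, and over all genes 3310 and 2677. The blocked ratios differed by 5.97 for Ptgs2 to Ptgs1, 4.28 for Ptges to Hpgd and 2.90 for Ptger4 to Ptger2, each with an adjusted p of 0.0833, where sign flips of 5 pairs cannot give a p below 0.0625. Ptgis and Pla2g6 did not pass with the block, whereas Prxl2b and Dpep1 did. Over all alternatives, 2878 to 3780 genes were higher and 2474 to 3457 lower. Without both extremes of the second principal component, saline replicate 5 and CD95-Ab replicate 4, 6 of the 9 genes were higher and 1 lower, and 11 and 11 of the pathway list. The median of all genes moved by less than 0.1 under other scalings. Depth limits the folds of Ptgs2 and Alox5, whose controls held 7 and 11 counts in all. It also limits those of Dpep2, Ptgir and Ptges, whose controls held 16, 19 and 32. The log2 fold change of Ptges was 2.29 with a prior count of 2.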
